A study of Sus scrofa with 8 samples.

Results

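The miR-30 family was followed through the lactation of the pig in small RNA of milk exosomes. The family was defined by sequence: every adaptor-trimmed read (an insert) of 18 to 26 nt that carried at nt 1 to 8 the bases of miR-30a-5p was counted, and its members miR-30a-5p, miR-30c-5p and miR-30d-5p were told apart by the first 18 nt of their sequences in the primer table of the study. The rule found 2155 distinct inserts with 1313625 counts, out of 1609954 distinct inserts of this length with 31322051 counts in all 8 libraries. Of the family's counts, 818765 were miR-30a-5p, 240549 were miR-30c-5p, 222527 were miR-30d-5p and 31784 belonged to 1661 other distinct inserts with the same start. The count of miR-30c-5p takes in a further sequence that shares its first 18 nt and is split off below. Without that sequence miR-30c-5p was below miR-30d-5p in the sum of the libraries. A single library from the day of birth, 0d-3, gave 1033989 of the family's counts. Only in that library did miR-30c-5p outnumber miR-30d-5p. Among the 13 miRNAs of the primer table, the 3 members were the only ones with this start.

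Milk was taken from 3 healthy Yorkshire sows on the day of birth (day 0) and on days 3, 7, 14, 21 and 28 of lactation. Exosomes, small membrane vesicles that carry RNA, were precipitated from it with a commercial solution and their RNA was sequenced. Each of the 3 libraries of day 0 (0d-1, 0d-2 and 0d-3) came from 1 sow. Every later day had 1 library (3d, 7d, 14d, 21d and 28d), made from the RNA of the 3 sows in a pool, so that the variation between sows after day 0 was not measured. The study counts days 0 and 3 as colostrum and days 7 to 28 as mature milk, which gives 4 libraries a class. The labels name no treatment. All values are shares of a library, so that more exosomes and more copies in each exosome cannot be told apart.

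A microRNA is cut from a hairpin precursor and guides a silencing complex to messenger RNAs, mainly by pairing through its seed, nt 2 to 8. The members of the miR-30 family share their seed and therefore much of their set of predicted targets, and they differ in the central and 3′ bases. They are abundant in epithelial tissues, the mammary gland included, and they have been studied as regulators of differentiation and of the epithelial state. The pig annotation (RefSeq, Sscrofa11.1) lists 6 genes of the family in 3 neighbouring pairs, in which MIR30A lies beside MIR30C-2, MIR30D beside MIR30B and MIR30E beside MIR30C-1.

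The sequences show how little separates the members. They are written as DNA from 5′ to 3′, with the shared seed in capitals. The first 3 are the sequences of the primer table, and the last 2 are frequent inserts of a pair of smaller groups met in the reads.

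miR-30a-5p: tGTAAACAtcctcgactggaagc

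miR-30d-5p: tGTAAACAtccccgactggaagc

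miR-30c-5p: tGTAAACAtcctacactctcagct

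most frequent insert of the miR-30c-5p group with another base at nt 19: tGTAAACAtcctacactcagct

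24-nt insert of the group with T at nt 13: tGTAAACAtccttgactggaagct

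Positions are counted from 1 at the 5′ end, and the base of the first-named sequence comes first. From miR-30a-5p to miR-30d-5p the only change over 23 nt was T12C. Between miR-30a-5p and miR-30c-5p, 18 of 23 nt were the same, and the changes were C13A, G14C, G18C, G19T and A20C. The 4th sequence has the first 18 nt of miR-30c-5p and then T19A, and it ends after 22 nt. The 5th is 1 base from miR-30a-5p in its first 18 nt (C13T) and 24 nt long.

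The depth behind the family differed widely. The libraries held 14590531 to 28141425 reads, of 36 nt at days 7 and 21 and of 40 nt otherwise, and the inserts of 18 to 26 nt numbered from 803940 at day 7 to 13896127 in 0d-3. Library 0d-3 stood apart from the other 7. Inserts of this length made up 76.2% of its reads, against 3.35% to 18.2% elsewhere. Only 0.105% of those inserts began with one of 4 recurring 5-nt runs, called leaders here, against 42.5% to 73.6%. The leaders are the 4 most frequent inserts of 5 nt. Any insert with such a start was counted as having a leader, so that an RNA with this start of its own is not told apart. The milk miRNA miR-148a-3p had 0.304% as many counts as the family in 0d-3 and 328% to 630% as many in the others. Comparisons of colostrum with mature milk are therefore given with and without 0d-3.

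The family made up 1.54% of the inserts in 0d-1, 1.71% in 0d-2, 7.44% in 0d-3, 0.906% at day 3, 1.502% at day 7, 1.33% at day 14, 2.59% at day 21 and 1.71% at day 28. Library 0d-3 was the highest and day 3 the lowest, both colostrum, so that the classes overlapped fully. The mean share was 2.90% ± 3.05 (SD, n = 4) in colostrum and 1.78% ± 0.560 (SD, n = 4) in mature milk (two-sided exact permutation test, p = 0.771, adjusted p = 0.8286 over 12 comparisons). Without 0d-3 the colostrum mean was 1.39% ± 0.425 (SD, n = 3), below that of mature milk, again with no difference beyond the spread (exact permutation test, p = 0.486, adjusted p = 0.857). These and the following adjusted p-values are by the method of Benjamini and Hochberg over the same 12 measures, and with 4 libraries against 4, or 3 against 4, the smallest p the test allows is 0.0286.

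The family was also set against other totals. As a share of the inserts without a leader, the family stood at 4.997%, 5.51% and 7.45% in the 3 libraries of day 0, at 3.43% at day 3 and at 3.36%, 4.16%, 4.50% and 4.43% at days 7 to 28. Within the 13 primer-table miRNAs it ran from 11.8% at day 7 to 18.9% at day 28 in 7 libraries and reached 33.6% in 0d-3. Library 0d-3 was the highest on each of these scales. miR-30a-5p was always the leading member: ordered by count among groups of inserts with a common first 18 nt, it came between place 2 and place 11, and between 2 and 4 once the inserts with a leader were set aside. miR-30d-5p came between 9 and 15 and miR-30c-5p between 11 and 21 on the second order.

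**Figure D1:**
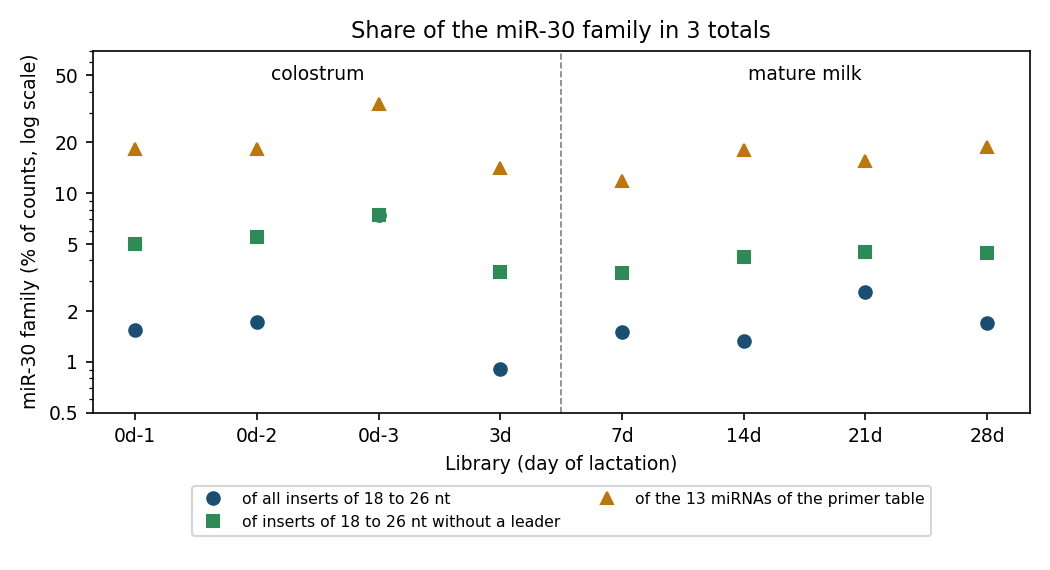
Share of the miR-30 family in each library (x axis, day of lactation), in % of counts on a log scale, for 3 totals. The dashed line separates colostrum from mature milk. Library 0d-3 is the highest for each total, its first 2 points lie on top of each other at 7.44% and 7.45%, and the other 7 libraries lie closer together once inserts with a leader are left out (3.36% to 5.51%).

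A fit of colostrum against mature milk across all groups of inserts (edgeR quasi-likelihood test, 13905 groups tested) called 0 of the 3 members, and of all groups tested 0% were called at an adjusted p under 0.05. The log2 difference, colostrum over mature milk, was 2.08 for miR-30a-5p (SE 1.90), 2.45 for miR-30c-5p (SE 1.91) and 1.96 for miR-30d-5p (SE 1.87), each with an edgeR adjusted p of 0.973. At an unadjusted p under 0.05 the fit had 260 groups, 1.87% of those tested, and no member was among them. The median log2 difference of all groups was -0.32 with TMM scaling, 0.28 with RLE size factors and -0.38 with library size alone. Relative to that median, miR-30a-5p stood at 2.40, 1.40 and 0.96. Each of these differences was below 2 standard errors. Without 0d-3 the members were at -0.11, -0.012 and -0.080 (edgeR adjusted p = 0.9996), where 2798 groups, 19.6% of 14297, had an unadjusted p under 0.05 and again 0% were called.

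In contrast to the family's share of inserts, the share of miR-30a-5p within the family hardly moved among inserts that start with the seed. miR-30a-5p held 63.0%, 63.4% and 62.0% of the family's counts in the libraries of day 0, 63.8% at day 3, 63.0% at day 7, 64.7% at day 14, 66.5% at day 21 and 62.8% at day 28. The values spanned less than 5 percentage points although the family's counts ranged from 12077 at day 7 to 1033989 in 0d-3. The 95% Wilson interval at day 21, 66.0% to 67.0%, lay above those of the other libraries, and such intervals cover counting error only. Colostrum had 63.0% ± 0.812 (SD, n = 4) and mature milk 64.3% ± 1.70 (SD, n = 4), which did not differ beyond the spread (exact permutation test, p = 0.257, adjusted p = 0.617). Without 0d-3 colostrum had 63.4% ± 0.432 (SD, n = 3, exact permutation test, p = 0.514, adjusted p = 0.857). With the inserts behind a leader counted in, the means in all libraries fell to 57.8% in colostrum and 59.8% in mature milk (exact permutation test, p = 0.543). These means are not on equal terms. Inserts behind a leader were 3.35% to 4.07% of all family inserts at days 7 and 21, both mature milk with 36-nt reads. They were 0.0020% in 0d-3 and 13.3% to 18.5% in the remaining libraries.

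miR-30d-5p, which has a single changed base in the middle of the molecule, held 19.1%, 18.8% and 16.4% at day 0, 19.3% at day 3, 19.2% at day 7, 19.3% at day 14, 19.5% at day 21 and 17.8% at day 28. Library 0d-3 and day 28 were low and the other 6 libraries lay within 1 percentage point. The class means were 18.4% ± 1.34 and 18.95% ± 0.774 (SD, n = 4 each, exact permutation test, p = 0.486, adjusted p = 0.617). Without 0d-3 the colostrum mean was 19.07% ± 0.244 (SD, n = 3), so that the sign of the difference turned (exact permutation test, p = 0.971, adjusted p = 0.971).

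miR-30c-5p, whose 3′ part differs most, held 15.5%, 15.7% and 19.01% at day 0, 15.8% at day 3, 15.96% at day 7, 14.9% at day 14, 12.9% at day 21 and 17.8% at day 28. It was the most variable member. It was high in the libraries in which miR-30d-5p was low, and in 0d-3 it exceeded miR-30d-5p, though shares of one total do not vary independently. Colostrum had 16.5% ± 1.68 and mature milk 15.4% ± 2.04 (SD, n = 4 each, exact permutation test, p = 0.4, adjusted p = 0.617). Without 0d-3 colostrum had 15.7% ± 0.142 (SD, n = 3, exact permutation test, p = 0.714, adjusted p = 0.857).

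Ratios of members need no library total. miR-30a-5p outnumbered miR-30d-5p by 3.30, 3.37 and 3.77 at day 0, 3.30 at day 3, 3.28 at day 7, 3.35 at day 14, 3.41 at day 21 and 3.53 at day 28. The SD of the log2 ratio over the 8 libraries was 0.067, and 0.036 without 0d-3. The ratio of miR-30a-5p to miR-30c-5p was 4.06, 4.04 and 3.26 at day 0, 4.04 at day 3, 3.95 at day 7, 4.34 at day 14, 5.16 at day 21 and 3.53 at day 28, with an SD of 0.196 on the log2 scale. The order of the members was thus the same in 7 of 8 libraries, with miR-30d-5p and the miR-30c-5p group only 19 counts apart at day 28. That group takes in a further sequence, described below. By its first 19 nt, miR-30c-5p had 9693 counts at day 28, against 11061 for miR-30d-5p. Neither log2 ratio differed beyond the spread between colostrum and mature milk (exact permutation test, p = 0.8286 and 0.4, adjusted p = 0.8286 and 0.617). Without 0d-3 the exact permutation test gave p = 0.371 and 0.714, each with an adjusted p of 0.857, and the sign of the first turned, from 0.017 to -0.028 on the log2 scale.

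**Figure D2:**
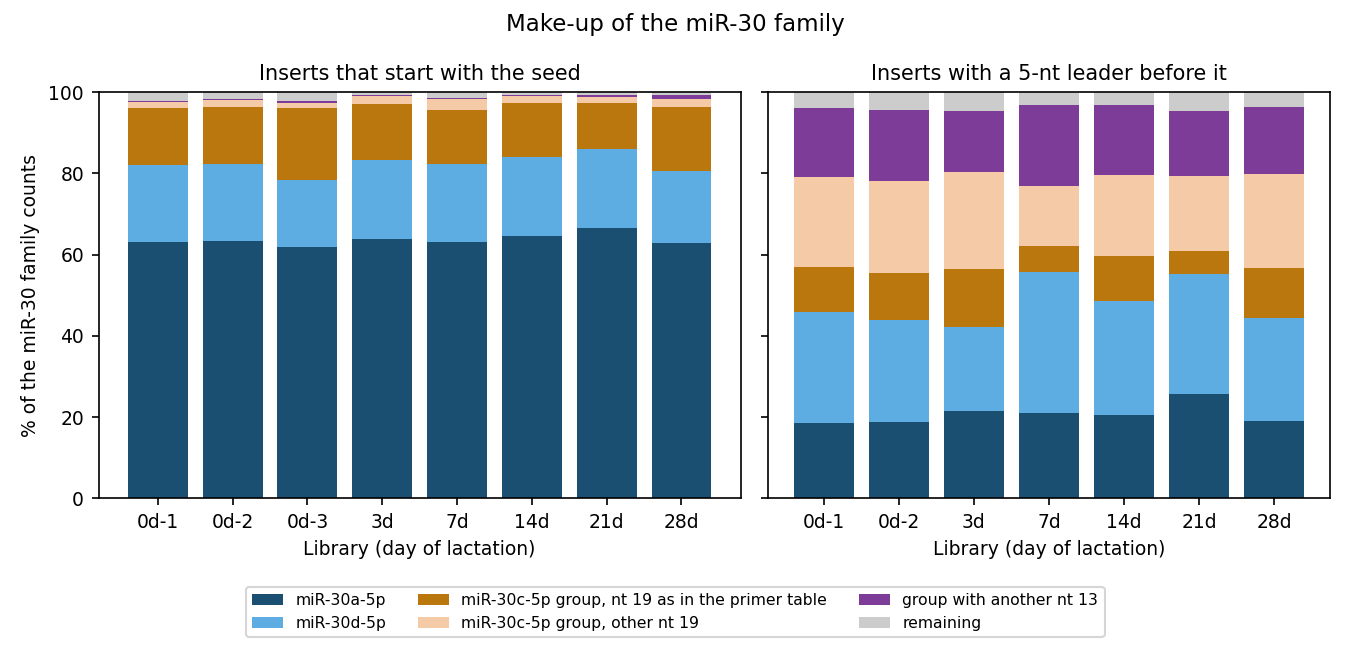
Make-up of the miR-30 family in % of its counts (y axis) by library, for inserts that start with the seed (left, 8 libraries) and for inserts in which a 5-nt leader precedes it (right, 7 libraries, 0d-3 not shown for its 21 counts). miR-30a-5p holds 62.0% to 66.5% on the left and 18.5% to 25.7% on the right.

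Identity over 18 nt did not single out miR-30c-5p fully. Of its group of inserts, 10.0%, 10.0% and 7.33% at day 0 carried the other base at nt 19, and 11.4% at day 3, 15.8% at day 7, 10.7% at day 14, 11.3% at day 21 and 12.2% at day 28. Day 7 was the highest and 0d-3 the lowest, and their Wilson intervals (14.3% to 17.5% and 7.22% to 7.45%) did not overlap those of the other libraries. These inserts had a sharp 3′ end, since the 22-nt insert printed above made up 88.9% to 92.7% of them. This further sequence shares its first 18 nt with miR-30c-5p and is left unnamed because no reference sequence was used here to name it. Counted by its first 19 nt, miR-30c-5p held 11.4% to 17.6% of the family, and miR-30a-5p outnumbered it by 3.52 to 5.81. Its mean over the 8 libraries was then 27625 counts, below the 27816 of miR-30d-5p. The unnamed sequence held 1.39% to 2.53% of the family.

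The family start was found in 468 groups with different first 18 nt. Only the groups of the 3 members, with the unnamed sequence inside that of miR-30c-5p, reached 1% of the family in any library. The next group is named after its values were seen. It differs from miR-30a-5p by C13T and held 0.315% to 0.449% of the family in 7 libraries and 0.834% at day 28, where its Wilson interval was 0.765% to 0.908%. Set against miR-30a-5p it had 0.571%, 0.532% and 0.566% as many counts at day 0, 0.703% at day 3, 0.499% at day 7, 0.497% at day 14, 0.595% at day 21 and 1.33% at day 28. The same change on miR-30d-5p was found at 0.021% to 0.172% of miR-30d-5p. Of the other 28 changes of a single base of miR-30a-5p at nt 9 to 18 that do not give a member, the median lay between 0.010% and 0.040% of miR-30a-5p in each library. C13T was above all of them in 7 of 8 libraries. The exception was 0d-3, in which T17G reached 1.002% of miR-30a-5p. Of the C13T inserts, 35.1% to 60.5% were 23 nt and 26.3% to 55.0% were 24 nt long. The 24-nt insert printed above was the most frequent in the pooled count (2432 of 4917), to which 0d-3 gave 1919, and in the other 7 libraries together it had 513 counts against 607 for the insert 1 base shorter.

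**Figure D3:**
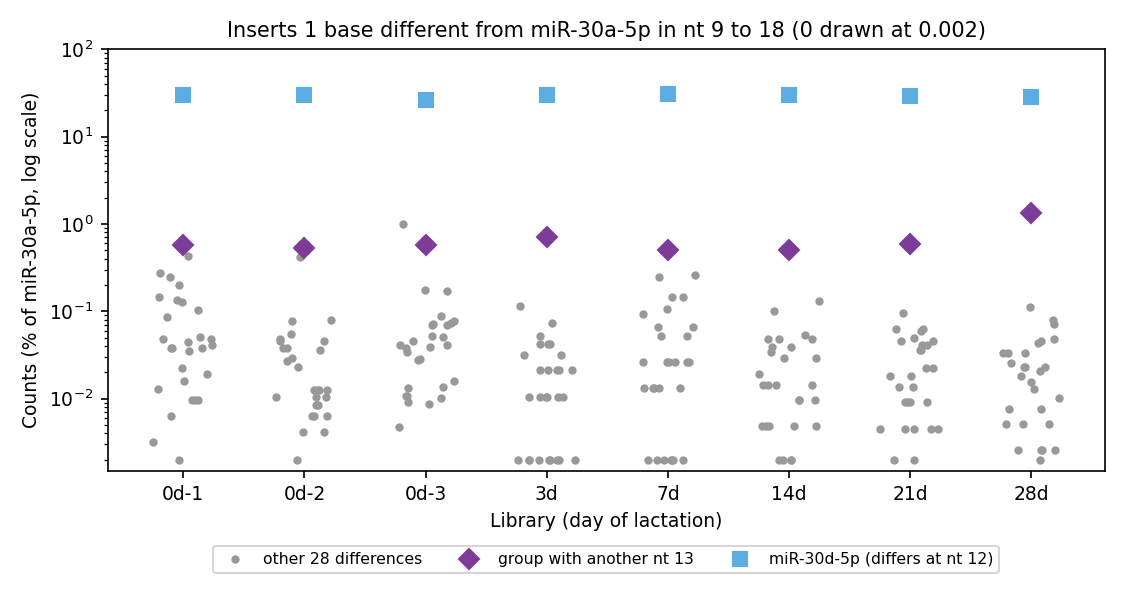
Counts of inserts that differ from miR-30a-5p by 1 base at nt 9 to 18, in % of miR-30a-5p on a log scale, by library. Squares are miR-30d-5p, diamonds the group with T at nt 13 (0.497% to 1.33%) and grey points the other 28 changes, spread sideways at random and drawn at 0.002% where no read was found. One grey point stands above the diamond in 0d-3.

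Apart from the inserts behind a leader, which are described further on and not counted here, the 5′ ends of the members were nearly uniform. Counting also the inserts that began 1 nt earlier or 1 or 2 nt later, 98.2% to 99.2% of miR-30a-5p started at nt 1, as did 98.2% to 99.7% of miR-30c-5p and 99.0% to 99.8% of miR-30d-5p. A start at nt 2, which moves the seed by 1 base, was taken by 0.572% to 1.54% of miR-30a-5p, lowest in 0d-3, and by at most 0.600% of miR-30c-5p and 0.273% of miR-30d-5p.

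The 3′ ends varied far more. Exactly the primer-table sequence, 23 nt, made up 46.5%, 46.5% and 29.5% of miR-30a-5p at day 0, 50.4% at day 3, 50.1% at day 7, 47.2% at day 14, 47.5% at day 21 and 45.9% at day 28. An insert longer by a single T made up 32.5%, 33.3% and 40.7% at day 0, 28.0% at day 3, 23.03% at day 7, 31.6% at day 14, 31.5% at day 21 and 33.2% at day 28. In 0d-3 the longer form was the more frequent, and at day 7 it was rarest. Other single bases in that place were rare, with A at 1.09% to 1.89%, G at 0.164% to 0.361% and C at 0.031% to 0.080% of miR-30a-5p. Which base follows the mature sequence in the precursor was not analysed here, so that a T cut from the hairpin and a T added later cannot be told apart.

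In 0d-3 the ends of miR-30a-5p spread in both directions. Inserts that stopped at nt 22 made up 18.6% there and 5.67% to 9.29% in the other 7 libraries. The mean length was nonetheless 23.2 nt, close to the 23.1 to 23.2 nt of the other libraries except day 7, where it was 22.9 nt. At day 7, inserts of 20 and 21 nt made up 2.64% and 4.81% of miR-30a-5p, against 0.988% to 1.41% and 2.23% to 3.14% elsewhere. Day 7 had the fewest family counts (12077) and reads of 36 nt. Day 21, also read at 36 nt, had 1.41% and 2.97%. The part of depth and of 0d-3's other features in these differences was not tested.

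miR-30d-5p, identical to miR-30a-5p from nt 13 to the end, had a different set of ends. Its exact sequence made up 62.3%, 62.0% and 48.5% at day 0, 65.7% at day 3, 65.4% at day 7, 60.7% at day 14, 61.7% at day 21 and 60.6% at day 28. The form longer by a T made up 19.4%, 20.0% and 27.5% at day 0, 16.5% at day 3, 13.1% at day 7, 19.4% at day 14, 18.4% at day 21 and 19.9% at day 28. The libraries kept the order seen for miR-30a-5p at the extremes, with 0d-3 the highest and day 7 the lowest for the longer form.

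Because both members come from the same library preparation, their ends were compared within libraries, by a two-sided exact sign-flip test chosen after the values had been seen. The exact sequence was less frequent in miR-30a-5p than in miR-30d-5p in 8 of 8 libraries, with means of 45.4% ± 6.66 and 60.9% ± 5.35 (SD, n = 8) and a difference of 13.5 to 19.02 percentage points. The form longer by a T was more frequent in miR-30a-5p in 8 of 8, at 31.7% ± 5.01 against 19.3% ± 4.08. So were inserts that stopped at nt 22, at 8.55% ± 4.23 against 4.40% ± 2.06. For each of these, and for the mean length of 23.12 against 23.01 nt, the exact test gave p = 0.0078, the smallest that 8 pairs allow, and an adjusted p of 0.0098 over 5 comparisons. The fifth, an A as nt 23 and last base, was at 5.27% ± 0.504 and 5.004% ± 0.621, higher in miR-30a-5p in 7 of 8 libraries (exact sign-flip test, p = 0.0703). Without 0d-3 the first 4 differences kept their direction in 7 of 7 libraries (exact sign-flip test, p = 0.0156, adjusted p = 0.0195).

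**Figure D4:**
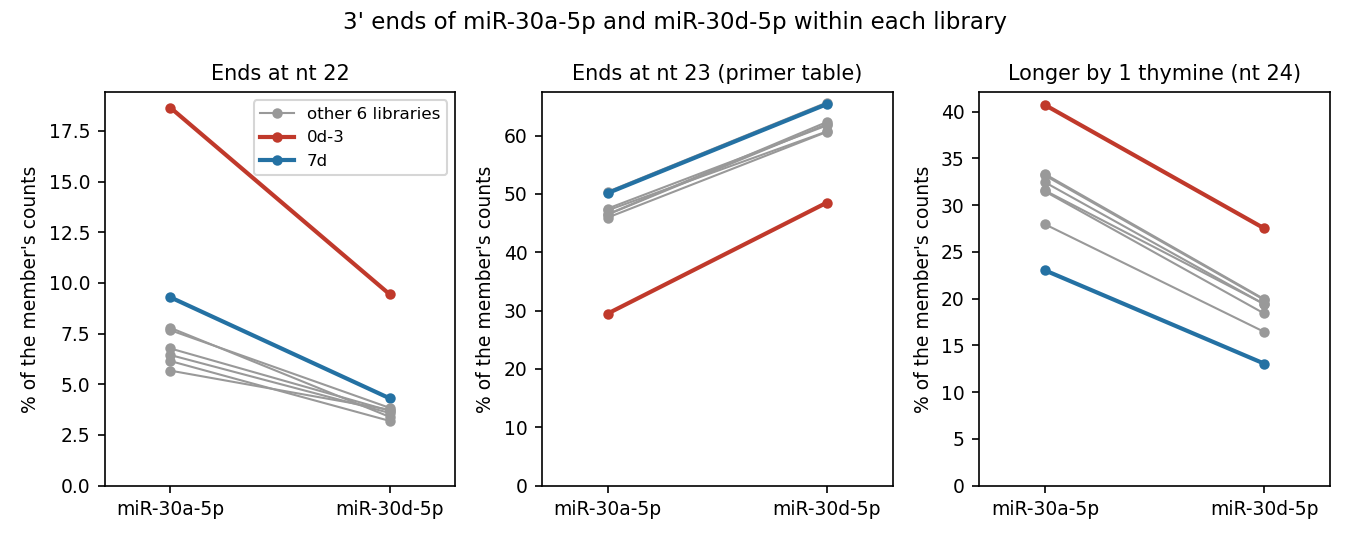
Share of inserts (y axis, % of the member's counts) that stop at nt 22, that are exactly the 23-nt sequence and that are longer by 1 T, for miR-30a-5p and miR-30d-5p. Each line joins both members of 1 library. All 8 lines fall in the left and right plots and rise in the middle plot, and 0d-3 and day 7 are drawn in colour.

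miR-30c-5p, counted by its first 19 nt, was split almost evenly between a pair of ends. Inserts stopping at nt 24, the primer-table sequence, made up 45.0%, 46.2% and 50.8% at day 0, 37.3% at day 3, 34.8% at day 7, 44.9% at day 14, 45.1% at day 21 and 46.0% at day 28. Those stopping at nt 23 made up 40.6%, 41.1% and 36.6% at day 0, 46.3% at day 3, 45.4% at day 7, 41.2% at day 14, 41.6% at day 21 and 39.6% at day 28. The 23-nt form led only at days 3 and 7. Inserts past nt 24, the end of its sequence, were rare, at 0.144% to 0.697%. The sequences of miR-30a-5p and miR-30d-5p end at nt 23, and 24.5% to 42.5% and 13.8% to 28.9% of their inserts ran past it. By length, inserts of 24 nt made up 36.1% to 52.4% of miR-30c-5p, 24.6% to 42.3% of miR-30a-5p and 13.9% to 28.8% of miR-30d-5p. Those of 25 nt were rare in all 3 members, at most 0.674%, 0.394% and 0.393%.

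**Figure D5:**
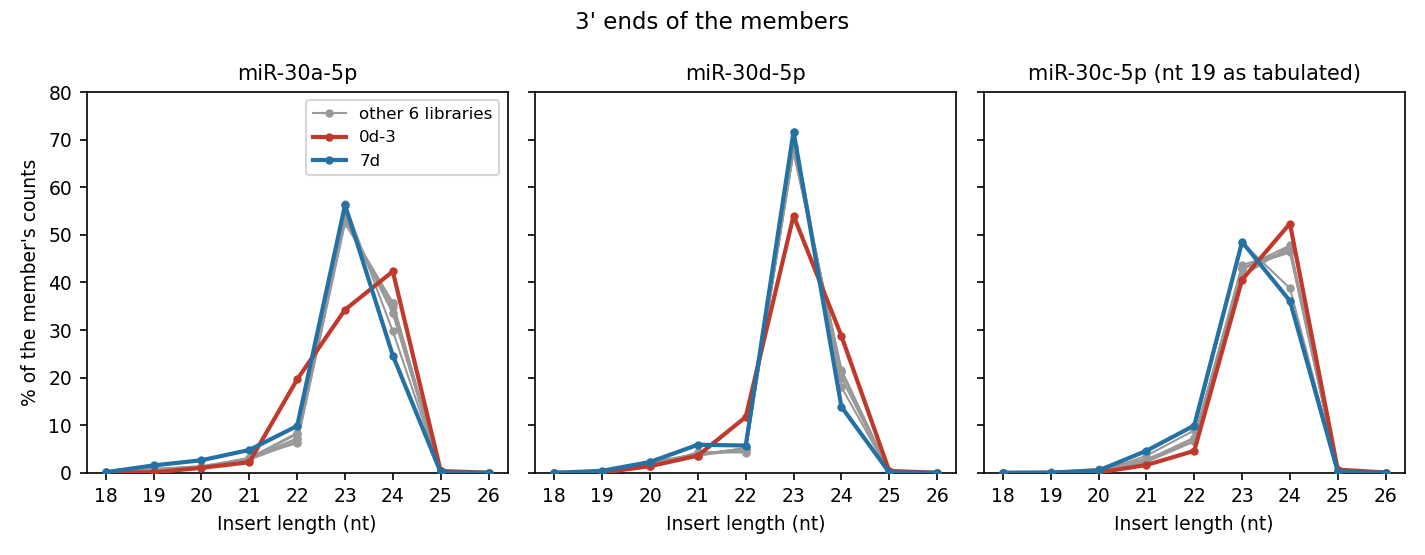
Length distribution of the inserts of each member (x axis, nt) in % of the member's counts, with 1 line per library. miR-30d-5p peaks at 23 nt in all 8 libraries and miR-30a-5p in all but 0d-3 (red), in which 34.3% are 23 nt and 42.3% are 24 nt long, while day 7 (blue) has the fewest of 24 nt.

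Inserts whose last bases departed from the primer-table sequence within its length made up 5.999% to 7.56% of miR-30a-5p, 7.07% to 8.50% of miR-30d-5p and 3.30% to 5.65% of miR-30c-5p. A single A was the most frequent departure of all 3 members in every library. It stood at the end of 5.01% to 6.24% of miR-30a-5p, 5.67% to 6.80% of miR-30d-5p and 2.32% to 4.61% of miR-30c-5p. A single departing T ended 0.493% to 0.766% of miR-30a-5p and 0.936% to 1.78% of miR-30d-5p, and a departing C or G at most 0.063% and 0.086%. In miR-30a-5p and miR-30d-5p most of these A stood at nt 23, in place of the last base (4.11% to 5.71% and 3.68% to 5.61%). Non-templated addition of A or U to the 3′ end is a known modification of miRNAs, and errors of reading also change bases. Their parts were not tested.

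Between colostrum and mature milk, the departing share of miR-30d-5p had the lowest p with all libraries. It was 7.59%, 7.51% and 8.10% at day 0, 7.07% at day 3, 7.89% at day 7, 8.50% at day 14, 8.45% at day 21 and 8.17% at day 28. The 3 colostrum libraries other than 0d-3 were below all 4 of mature milk, and 0d-3 was above day 7. With all libraries the means were 7.57% ± 0.424 and 8.25% ± 0.284 (SD, n = 4 each, exact permutation test, p = 0.0571, adjusted p = 0.457). Without 0d-3, colostrum had 7.39% ± 0.283 (SD, n = 3), with p = 0.0286 by the exact permutation test, the smallest it can give, and an adjusted p of 0.343. With only inserts of more than 10 counts, the difference in all libraries shrank from -0.68 to -0.42 percentage points (exact permutation test, p = 0.286). The mean length of miR-30d-5p did not differ beyond the spread (23.04 ± 0.025 nt in colostrum and 22.98 ± 0.070 nt in mature milk, SD, n = 4 each, exact permutation test, p = 0.0857, adjusted p = 0.457), nor without 0d-3 (exact permutation test, p = 0.257, adjusted p = 0.857). Without day 7 the difference shrank from 0.059 to 0.024 nt. The departing share of the miR-30c-5p group, taken by its first 18 nt and therefore with the unnamed sequence in it, had class means of 13.6% ± 0.892 (colostrum) and 15.7% ± 2.63 (mature milk, SD, n = 4 each, exact permutation test, p = 0.114, adjusted p = 0.457), and without 0d-3 the p was 0.314 by the same exact test. That difference of -2.13 percentage points was -0.83 without day 7 and turned to 0.59 when miR-30c-5p was taken by its first 19 nt. Of the 12 measures, 0 passed an adjusted p of 0.05 with all libraries or without 0d-3, and 0 and 1 passed unadjusted.

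Outside the rule, the family was also found behind the 5-nt leaders, in 49831 counts over the 7 libraries without 0d-3, which itself had 21. These inserts were 13.3% to 18.5% of all family inserts, with and without a leader, in the 5 libraries of 40-nt reads and 3.35% to 4.07% in those of 36-nt reads, in which at most 23 nt can be read behind a leader. For miR-148a-3p the corresponding share was 0.209% to 3.26% in the same 7 libraries.

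Behind a leader the family had another make-up. miR-30a-5p held 18.5% in 0d-1, 18.9% in 0d-2, 21.5% at day 3, 20.9% at day 7, 20.6% at day 14, 25.7% at day 21 and 19.1% at day 28. All were below the 62.8% to 66.5% found without a leader in these libraries. The group with T at nt 13 held 14.9% to 20.1% in place of 0.315% to 0.834%. Of the miR-30c-5p group, 62.8% to 76.0% carried the other base at nt 19, in place of 10.0% to 15.8%. The miR-30c-5p group had a mean of 31.0% ± 6.21 behind a leader and 15.5% ± 1.45 without one, and miR-30d-5p 27.2% ± 4.34 and 19.004% ± 0.569 (SD, n = 7). The higher share of that group lay in the unnamed sequence. By its first 19 nt, miR-30c-5p was lower behind a leader in 6 of 7 libraries, at 10.2% ± 3.12 against 13.7% ± 1.24 (SD, n = 7, exact sign-flip test, p = 0.0312, adjusted p = 0.0312 over 7 comparisons). Days 7 and 21 had its lowest shares behind a leader, 6.05% and 5.79%. Their 36-nt reads cannot hold the 24-nt sequence of miR-30c-5p behind a leader. In the libraries of 40-nt reads alone the difference was -2.28 percentage points (exact sign-flip test, p = 0.125). The 6 other comparisons, the log2 ratio of miR-30a-5p to miR-30d-5p among them, had the same direction in 7 of 7 libraries, with p = 0.0156 by a two-sided exact sign-flip test, the smallest possible, and an adjusted p of 0.0182. The comparison was made after the inserts had been seen. The ends were shorter too, with a mean length of miR-30a-5p of 21.2 to 21.5 nt in the libraries of 40-nt reads. The lower share of miR-30a-5p was found behind each of the 4 leaders, at 18.3% to 24.3%. Whether the leader arose in the library preparation was not tested.

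Among the other miRNAs of the primer table, 3 were most like the family in pattern, by the SD over the 8 libraries of the log2 ratio of their counts to the family's. miR-182-5p, a miRNA of the miR-183 cluster, had 20.3% to 24.5% as many counts as the family and an SD of 0.10. miR-574-3p had 10.5% to 14.9% and an SD of 0.16, and miR-27b-3p 4.29% to 7.59% and an SD of 0.28. For comparison, miR-30d-5p had an SD of 0.067 against miR-30a-5p, and miR-148a-3p one of 3.69 against the family. This order rests on 0d-3. Without it the smallest SD was that of miR-191-5p, at 0.091, followed by miR-182-5p, while miR-574-3p and miR-27b-3p moved to places 6 and 7 of 10.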

How the data were processed

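Small RNA of porcine milk exosomes was sequenced in 8 libraries (Illumina Genome Analyzer II). The authors deposited, per library, each different read with its count. The counts are not normalized and the reads still carry the 3′ adaptor, so that the study's filters and alignment are not in them.

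The adaptor, read from inserts of miR-148a-3p, was removed from where its first 8 nt were first matched exactly. Inserts with an undetermined base or a length outside 18 to 26 nt were left out, with no mismatch allowed to the family start or to the members. Days follow the labels. The division into colostrum and mature milk and the pooling of RNA follow the study's methods. The single libraries of a class served as its replicates, so that p-values measure the spread between days as well as between samples. The spreads of the classes are unlike. Colostrum holds the single-sow libraries of day 0 and the pool of day 3, and mature milk holds only pools of the same sows. The tests treat all libraries as independent, although they share sows.

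Shares, log2 ratios, mean lengths and departing 3′ ends were compared by two-sided exact permutation tests over libraries, and differences within libraries by exact sign-flip tests (Python 3.11.15, scipy 1.17.1). Shares of counts carry 95% Wilson intervals. Reads have no molecular identifiers, so that intervals cover counting error only. Groups of inserts with the same first 18 nt and an insert of more than 10 counts were fitted in edgeR 4.0.16 (filterByExpr, TMM, quasi-likelihood test, Benjamini-Hochberg adjustment), with DESeq2 1.42.0, other scalings, no filter, other adaptor and member matches, a count minimum, 1 read length and each library left out as alternatives. The tests were also run on simulated data. For edgeR these had a smaller spread of counts (dispersion) than the 1.46 estimated in the real libraries. How large a change the fit could find here was therefore not measured.

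Named are the 3 members, further groups of at least 1% of the family in any library (none was found beyond the members), the miR-30c-5p group split at nt 19, and the 3 of the other 10 primer-table miRNAs most like the family. The members and lists were chosen with earlier results of these data known. The sequences of the members are those of the study's primer table. No precursor sequence was used here, and 3p arms were not analysed.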

Additional observations from a re-analysis of the deposited data

Results flagged for a closer look

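In 24 groups of 4 libraries (12 measures in each class), 8 had a library far from the other 3, where chance gives about 1 in 20, or 1.2. Library 0d-3 was that library in 5 of them, all in colostrum: the family's share of inserts (7.44%), the share of miR-30c-5p (19.01%) and of miR-30d-5p (16.4%) in the family, and the log2 ratios of miR-30a-5p to miR-30d-5p (1.91) and to miR-30c-5p (1.70). Day 28 was far from the other mature libraries in the share of miR-30d-5p (17.8%). Day 7 was far from them in the mean length of miR-30a-5p (22.9 nt) and of the miR-30c-5p group (22.95 nt). The measures of a library share their counts, so that the 5 values of 0d-3 are not independent of each other.

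The 49831 family counts behind a 5-nt leader lie outside the main measurement, which takes inserts that start with the seed.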

How the results depend on the processing

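Of 333 recomputed values of 28 results, 296 kept direction and side of the threshold. For 4 of the 12 measures, the direction of colostrum against mature milk turned when 1 library was left out. Without 0d-3 it turned for the family's share (-0.39), the share of miR-30d-5p (0.12), the log2 ratio of miR-30a-5p to miR-30d-5p (-0.028) and the edgeR log2 differences of miR-30a-5p (-0.11), miR-30c-5p (-0.012) and miR-30d-5p (-0.080). In 40-nt libraries without 0d-3 (chosen after seeing the data, like the pairs) the values were -0.13 for the family's share, -0.68 and 0.51 for the shares of miR-30c-5p and miR-30d-5p, -0.048 and 0.048 for the log2 ratios to miR-30d-5p and miR-30c-5p, -0.014 and -0.0036 nt for the mean lengths of miR-30a-5p and miR-30c-5p, 0.063 for the departing share of miR-30a-5p, and -0.045 and -0.12 for the log2 differences of miR-30a-5p and miR-30c-5p. In 40-nt libraries with 0d-3, the log2 ratio to miR-30d-5p was -0.0022 and the mean length of miR-30a-5p -0.010. By its first 19 nt the departing share of miR-30c-5p differed by 0.59, in place of -2.13. The comparisons behind a leader cannot pass with the 5 libraries of 40-nt reads (exact test, p = 0.0625), at -43.9, 18.4, 6.43, 16.2 and 54.4 percentage points for miR-30a-5p, the miR-30c-5p group, miR-30d-5p, T at nt 13 and the other nt 19, -2.11 for the log2 ratio of miR-30a-5p to miR-30d-5p, and -2.28 (exact test, p = 0.125) for miR-30c-5p by its first 19 nt, which gave -4.10 to -2.84 with 1 library left out and then passed only without day 3. DESeq2 called 48 of the 5736 groups to which it gave an adjusted p, and edgeR without a filter 1 of 31762, against 0 of 13905. The members got no p from DESeq2. Its log2 differences were 1.68 for miR-30a-5p (SE 0.99), 1.97 for miR-30c-5p (SE 1.03) and 1.59 for miR-30d-5p (SE 0.98). Otherwise the causes were not tested.

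Leaving out 1 library in turn gave -0.39 to 1.78 for the family's share, -1.68 to -0.46, -0.92 to 0.12 and 0.28 to 1.91 for the shares of miR-30a-5p, then miR-30d-5p, then miR-30c-5p, -0.028 to 0.036 and -0.22 to -0.034 for the log2 ratios to miR-30d-5p and miR-30c-5p, and -0.0037 (without day 7) to 0.083 nt for the mean length of miR-30a-5p. The mean length of miR-30d-5p gave 0.024 (without day 7) to 0.073 nt, and the departing share of the miR-30c-5p group -2.77 to -0.83 (without day 7). The log2 differences reached, for miR-30a-5p, then miR-30d-5p, then miR-30c-5p, 2.52, 2.39 and 2.90. The departing share of miR-30d-5p gave -0.86 (without 0d-3, p = 0.0286 by the exact permutation test) to -0.52. The A at nt 23 gave 0.19 to 0.36 percentage points more in miR-30a-5p than in miR-30d-5p, and passed without day 14 (exact sign-flip test, p = 0.0156). The 4 other paired differences of ends passed in each case. Colostrum could not be paired with mature milk by sow, because every library after day 0 is a pool of the sows. Depth limits day 7 most, where 3 counts are 0.00037% of inserts.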

Other observations

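One change of base stood out in 0d-3 on all 3 members. T17G, a change at the 17th base that the members share, had 6419 counts or 1.002% of miR-30a-5p, 2406 counts or 1.42% of miR-30d-5p and 665 counts or 0.338% of miR-30c-5p there. In the other 7 libraries it had at most 6 counts and 0.043% of any member. In 0d-2 the most frequent single change of miR-30c-5p and miR-30d-5p was A15C, at 0.466% and 0.416%. In 0d-1 that of miR-30d-5p was C12A, at 0.895%, and this base at nt 12 is also 1 change from miR-30a-5p.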
